A study of Vitis vinifera with 16 samples.

Results

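The step from the pea-size berry (E-L stage 31 of the modified Eichhorn-Lorenz scale, small, hard and green) to véraison (E-L stage 35, the first colouring and enlargement) was examined in 8 of the 16 samples of the series, 4 of E-L35 and 4 of E-L31. They are berries of Muscat Blanc à Petits Grains, a white grapevine variety with Muscat aroma, from 1 vineyard in Gaotai (GT, Gansu province) and 1 in Changli (CL, Hebei province), picked in the vintages 2011 and 2010. Each stage therefore has 1 sample per vineyard and vintage, and all samples carry the same variety, an age of vine that differs between the vineyards (planted in 2001 in GT and in 2006 in CL) and no treatment. Expression was read per transcript record of the grapevine reference and is given as RPKM, the reads of a transcript scaled to its length and to the mapped reads of the library. Each E-L35 sample was measured with 2 RNA libraries and each E-L31 sample with 1, so 12 of the 24 libraries were used. RNA came from about 50 berries of a sample of about 1000, without the seeds. Since the repeat behind each library is not labelled, libraries were added up per sample and n counts samples. With 1 vineyard per region, region and vineyard cannot be told apart. Values of the 4 samples of a stage are given in the order GT 2011, GT 2010, CL 2011 and CL 2010.

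At véraison a grape berry stops hardening, softens, takes up sugar and begins to make the compounds of the ripe fruit, and abscisic acid and ethylene are known to take part in its timing. Muscat aroma rests on monoterpenols such as linalool, geraniol and nerol. Their carbon comes mainly from the plastid MEP pathway, while the cytosolic MVA pathway mainly supplies sesquiterpenes. Terpene synthases (TPS) form the alcohols, and UDP-glycosyltransferases (UGT) attach a sugar that makes them odourless and storable. Many regulators of the growing green fruit, such as homeodomain-leucine zipper (HD-Zip), TCP and bHLH transcription factors, belong to large families whose members are known mainly from Arabidopsis.

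Library sums lay between 10080161 and 26627006 assigned reads in the E-L35 samples and between 3798921 and 18800778 in the E-L31 samples, lowest in GT 2010 of E-L31. The 10 most abundant transcripts took 8.82 to 16.4% of the reads at E-L35 and 6.11 to 9.59% at E-L31. The paired libraries of each E-L35 sample were not copies of each other, and those of GT 2010 differed most (median absolute log2 difference 0.343, against 0.138 to 0.157 in the others). In such bulk samples, fewer cells of a type and less RNA per cell cannot be told apart. Lists of seed and pollen transcripts matched no named record, so remains of other tissues were not checked, and transcript sequences were not used here.

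The E-L31 sample of GT 2011, labelled 2011G1, did not lie with the other pea-size samples. Its root-mean-square log2 distance was 0.773 to 1.01 to the 4 E-L35 samples and 1.20 to 1.46 to the other 3 E-L31 samples. On the first dimension of a multidimensional scaling, which held 41.2% of the variation, the E-L35 samples lay between -1.84 and -1.29, 2011G1 at -0.617 and the other E-L31 samples between 1.77 and 2.65.

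VviMYBA2 (XM_002265012.1), a MYB gene of the berry colour locus that is switched on at ripening, was taken as the marker of stage, with earlier results of these data known. It had 13.7, 47.6, 6.76 and 44.5 RPKM in the E-L35 samples, against 54.8, 0, 0.197 and 0.0919 RPKM in the E-L31 samples. The highest E-L31 value was that of 2011G1, above all 4 E-L35 samples, whereas the other E-L31 samples were at or near 0. The label of 2011G1 therefore goes against this marker, and call counts and test values below are mostly given both with all 8 samples and without it. The sample was left out because of its expression, so p-values without it are not independent of that choice. The cause of its position was not tested.

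With all 8 samples, edgeR's quasi-likelihood test with region and vintage as blocks called 138 of 18714 transcripts between E-L35 and E-L31 (0.737%), taking transcripts whose adjusted p did not exceed 0.05 and whose log2 ratio was 1 or more in either direction. Of these, 13 rose (0.0695%) and 125 fell (0.668%). At an unadjusted p under 0.05 were 4512 of the 18714 transcripts. DESeq2, a second test, called 509 of the 18714 that rose and 1204 that fell. Counts of list members below at an unadjusted p, or by DESeq2, with all 8 samples stand against these counts. Without 2011G1 edgeR called 2564 of 18618, of which 918 rose (4.93%) and 1646 fell (8.84%), 13.8% in all. With library totals in place of TMM scaling, 641 rose and 2682 fell without 2011G1, and limma on log2(RPKM + 1) called 574 that rose and 2129 that fell. Of the 138 transcripts, 128 were called in the same direction without 2011G1. In RPKM, which has no TMM scaling, the 4 E-L35 samples lay all above the 4 E-L31 samples for 245 transcripts (1.31%) and all below them for 2182 (11.7%). Library totals, which likewise lack this scaling, shifted the log2 ratios by a median of -0.25. How far this adds to the 2182 was not tested. Among the transcripts called without it, 2011G1 lay beyond the other 3 E-L31 samples on the side of E-L35 for 1559 of the 1646 that fell and for 826 of the 918 that rose. They were called with these 3 samples in the fit and 2011G1 left out, a choice that itself favours this side. The share over all transcripts was not computed, so both counts are a description. With all 8 samples the count rests on each sample, since 0 transcripts were called without CL 2010 of E-L31 or CL 2011 of E-L35, 1 without CL 2011 of E-L31, 2 without GT 2010 of E-L31 or CL 2010 of E-L35, 3 without GT 2011 of E-L35 and 10 without GT 2010 of E-L35.

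**Figure D1:**
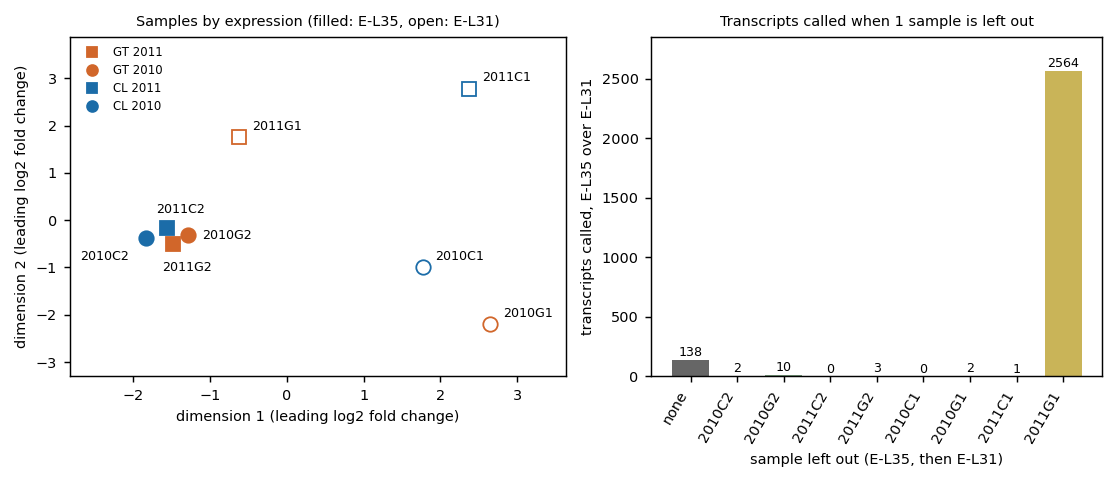
Left, the 8 samples on the first and second dimension of a multidimensional scaling of log2 expression, with E-L35 filled and E-L31 open; right, the number of transcripts called between E-L35 and E-L31 by edgeR when no sample or 1 sample is left out. The sample 2011G1 lies at -0.617 on dimension 1, between the E-L35 and the other E-L31 samples, and 2564 transcripts are called without it, against 138 with all samples and 0 to 10 without any other sample.

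Within a vineyard and vintage, the E-L35 over E-L31 ratio passed 2-fold in either direction for 13.9% of the transcripts in GT 2011, 30.8% in GT 2010, 23.6% in CL 2011 and 25.1% in CL 2010. A fit of the other 3 pairs, in which GT 2011 took no part, called 795 transcripts that rose and 1335 that fell. Their median log2 ratios were 0.05 and -0.33 in GT 2011, and 1.98 and -1.87 in the 3 pairs used for the fit. The transcripts were chosen by their ratios in the 3 pairs, which enlarges the medians there, and not on the GT 2011 samples. Leaving out any other pair called at most 6 transcripts, too few for such a median. No other pair therefore gives a value to set beside that of GT 2011.

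Of the 10 named or annotated transcripts that fell with all 8 samples, each of which also fell without 2011G1, 4 were HD-Zip factors. The HAT14-like transcript XM_002275711.1 had 0.568, 2.84, 1.38 and 1.12 RPKM in the E-L35 samples, against 5.81, 61.0, 18.1 and 38.2 RPKM in the E-L31 samples. Every E-L35 sample lay below every E-L31 sample, and 2011G1 had the lowest E-L31 value. On the log2 scale its stages differed by -3.96 (SE 0.54, adjusted p = 0.0467) by edgeR, and -4.30 (SE 0.39, adjusted p = 0.00140) without 2011G1.

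The HAT3-like transcript XM_002272716.2, whose Arabidopsis relative acts in leaf patterning and shade responses, had 1.03, 4.39, 1.41 and 1.43 RPKM in the E-L35 samples, against 7.70, 49.4, 28.7 and 31.2 RPKM in the E-L31 samples. Again the stages did not overlap. EdgeR gave it a log2 ratio of -3.57 (SE 0.49, adjusted p = 0.0467), and -3.90 (SE 0.32, adjusted p = 0.00111) without 2011G1. A pair of further HD-Zip transcripts were called in both fits, the ATHB-52-like XM_002273427.1 (log2 ratio -3.80, and -3.86 without 2011G1, at most 0.595 RPKM at E-L35 and 1.44 RPKM or more at E-L31) and the HAT5-like XM_002269569.2. The HAT5-like transcript had 9.76, 13.3, 4.71 and 6.78 RPKM in the E-L35 samples, against 18.5, 38.8, 19.9 and 30.1 RPKM in the E-L31 samples, with a log2 ratio of -1.44 (SE 0.18, adjusted p = 0.0467, and -1.58 with adjusted p = 0.00181 without 2011G1).

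Of the 26 homeodomain transcripts tested, 4 fell and 0 rose with all 8 samples, with a median log2 ratio of -0.94, against 0.00 over all transcripts tested. Without 2011G1, 15 fell and 1 rose, with a median of -1.23, against 8.84% lower and 4.93% higher over all transcripts. In 13 of the 26 the E-L35 samples lay all below the E-L31 samples in RPKM, against 11.7% of all transcripts, both without TMM scaling. The study picked its transcription factors on these same samples, so their directions are a description of the list. The abundant ATHB-6-like XM_003632428.1 had 165, 144, 94.1 and 87.6 RPKM in the E-L35 samples, against 152, 363, 261 and 383 RPKM in the E-L31 samples, with a log2 ratio of -0.96 (SE 0.29, adjusted p = 0.126) and -1.26 (SE 0.19, adjusted p = 0.00663) without 2011G1. The ATHB-13-like XM_002276853.1 had 62.4, 51.8, 43.0 and 38.4 RPKM in the E-L35 samples, against 84.0, 445, 165 and 223 RPKM in the E-L31 samples, and its log2 ratio was -1.85 (adjusted p = 0.0831 by edgeR) and -2.22 without 2011G1 (adjusted p = 0.00251). For both, the value of 2011G1 was the lowest of E-L31.

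The homeodomain transcript that rose without 2011G1 was another HAT14-like one, XM_002268142.1. It had 16.3, 10.8, 29.96 and 18.2 RPKM in the E-L35 samples, against 18.1, 6.84, 12.9 and 10.3 RPKM in the E-L31 samples. For it the log2 ratio was 0.86 (SE 0.30, adjusted p = 0.158) by edgeR, and 1.25 (SE 0.18, adjusted p = 0.00570) without 2011G1. None of the reads of 3 ATHB-15-like records was unique, so their counts cannot be told apart. Of these, XM_002283967.1 and XM_002283978.1 are among the 15 that fell without 2011G1, and XM_002283973.1 had a log2 ratio of -1.05 without 2011G1 (adjusted p = 0.0566 by edgeR, and -0.84 with adjusted p = 0.181 in all 8 samples) and was not called.

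**Figure D2:**
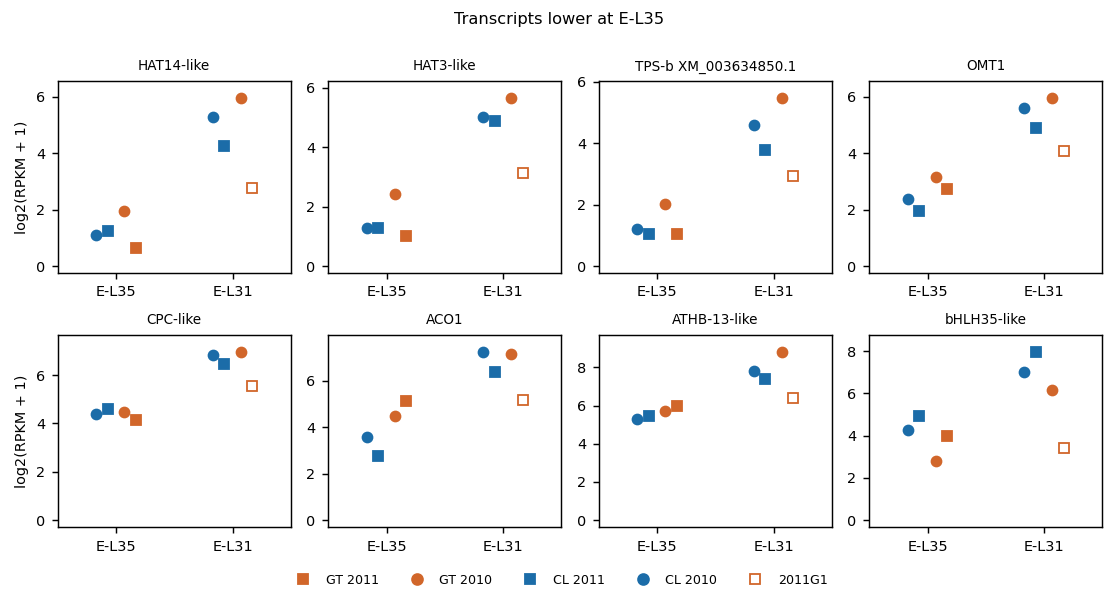
Levels in log2(RPKM + 1) of 8 transcripts that were lower at E-L35, with the 4 E-L35 samples left and the 4 E-L31 samples right, coloured by vineyard and shaped by vintage, and 2011G1 as an open square. For HAT14-like, HAT3-like, TPS-b XM_003634850.1, OMT1, CPC-like, ACO1 and ATHB-13-like all 4 E-L35 samples lie below all 4 E-L31 samples, and 2011G1 is the lowest E-L31 sample in each panel.

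A pair of MYB relatives was called with all 8 samples. The CPC-like transcript XM_002267633.1, whose Arabidopsis relative is a small R3-MYB protein that restrains trichome formation, was the most abundant named transcript called with all samples. It had 16.6, 21.5, 23.1 and 19.9 RPKM in the E-L35 samples, against 45.4, 123, 88.3 and 114 RPKM in the E-L31 samples. Its E-L35 over E-L31 log2 ratio was -1.87 (SE 0.24, adjusted p = 0.0467) by edgeR, and -2.06 (SE 0.20, adjusted p = 0.00171) without 2011G1. A TT2-like transcript (XM_002275112.1), related to an Arabidopsis regulator of proanthocyanidin synthesis, had 0, 0.227, 0.0526 and 0.171 RPKM in the E-L35 samples, against 0.737, 6.90, 1.30 and 2.97 RPKM in the E-L31 samples. Its log2 ratio was -4.06 (SE 0.58, adjusted p = 0.0495, and -4.16 with adjusted p = 0.00492 without 2011G1) by edgeR. In both, no E-L35 sample reached the lowest E-L31 value.

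Of 13 tested MYB relatives named after TT2, WER, CPC, TRY, LAF1, RAX or AS1, 2 fell with all 8 samples (median log2 ratio -1.34) and 7 without 2011G1 (median -1.65), and 0 rose. This grouping was made after the files were seen. Of all transcripts, 0.668% fell with all 8 samples, and 8.84% fell and 4.93% rose without 2011G1. Among the 9 transcripts annotated as MYB or APL-like, 0 were called by edgeR with all 8 samples (3 at an unadjusted p under 0.05, and 2 fell by DESeq2). Over all 18714 transcripts these counts were 4512 and 1204. Without 2011G1, 5 of the 9 fell (median -1.04), against the same 8.84%. The APL-like XM_002264221.2, related to a phloem factor of Arabidopsis, had 5.84, 12.02, 3.10 and 3.71 RPKM in the E-L35 samples, against 6.88, 45.2, 14.3 and 21.3 RPKM in the E-L31 samples, and its log2 ratio was -1.95 without 2011G1 (adjusted p = 0.00184 by edgeR) and -1.56 with it (adjusted p = 0.0965). The MYB44-like XM_002285353.2 moved less, by -1.04 without 2011G1 (adjusted p = 0.0217 by edgeR, and -0.56 with adjusted p = 0.492 in all 8 samples).

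Ethylene response factors (ERF and AP2-like) formed the largest group of named transcripts. With all 8 samples, 1 of 51 tested fell and 0 rose (median log2 ratio -1.20), against 0.668% lower and 0.0695% higher over all transcripts. That one, the ERF034-like XM_002266251.1, had 0.489, 0.989, 0.642 and 1.61 RPKM in the E-L35 samples, against 1.80, 10.01, 4.24 and 9.44 RPKM in the E-L31 samples, and its log2 ratio was -2.36 (SE 0.31, adjusted p = 0.0467, and -2.49 with adjusted p = 0.00300 without 2011G1) by edgeR. Without 2011G1, 27 of 50 fell and 2 rose, with a median of -1.64, against 8.84% lower and 4.93% higher over all transcripts. The share that rose is thus near that of all transcripts, and the study picked many of these factors on these same samples. Over the alternatives tried without 2011G1, 18 to 34 fell and 2 rose in each.

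Several ERF5-like transcripts, whose Arabidopsis relative acts in ethylene and defence responses, had their lowest E-L31 value in 2011G1. XM_002281777.2 had 10.3, 12.3, 29.4 and 3.17 RPKM in the E-L35 samples, against 7.53, 75.8, 109 and 55.1 RPKM in the E-L31 samples. The 2011G1 value lay within the range of E-L35, and the log2 ratio was -1.86 (SE 0.85, adjusted p = 0.234) by edgeR and -2.52 (SE 0.54, adjusted p = 0.0208) without 2011G1. Reads of some ERF5-like transcripts were partly shared (77.4% unique for this transcript, 55.1% for XM_002281930.1 and 31.6% for XM_003633976.1), so the share of each is uncertain. The one with the highest level, XM_002282145.2, had only unique reads. It had 44.0, 36.9, 57.7 and 40.1 RPKM in the E-L35 samples, against 44.3, 87.0, 153 and 117 RPKM in the E-L31 samples, with a log2 ratio of -1.05 (SE 0.12, adjusted p = 0.00269, and -0.80 with adjusted p = 0.124 in all 8 samples) without 2011G1. Other ERF transcripts that fell without 2011G1 were the ERF7-like XM_002282279.1 (-4.69, adjusted p = 0.00260, and -4.42 with adjusted p = 0.0674 in all 8 samples), the ERF022-like XM_002275817.1 (-3.49, adjusted p = 0.00148, and -2.91 with adjusted p = 0.0818 in all 8 samples) and the ERF12-like XM_002279724.1 (-2.92, adjusted p = 0.00232, and -2.48 with adjusted p = 0.0708 in all 8 samples).

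A pair of ERF transcripts rose without 2011G1. The ERF003-like XM_002285337.1 had 240.3, 180.2, 370.2 and 280.2 RPKM in the E-L35 samples, against 213, 18.2, 124 and 66.5 RPKM in the E-L31 samples. The 3 other E-L31 samples lay below all E-L35 samples, while 2011G1 lay within their range. On the log2 scale its stages differed by 1.88 (SE 0.60, adjusted p = 0.136) by edgeR, and 2.64 (SE 0.31, adjusted p = 0.00288) without 2011G1. The ERF062-like XM_002267968.1 had 41.0, 22.3, 39.1 and 22.8 RPKM in the E-L35 samples, against 18.0, 11.6, 6.75 and 8.24 RPKM in the E-L31 samples. Here the E-L35 samples lay above all 4 E-L31 samples, and the log2 ratio was 1.75 (SE 0.31, adjusted p = 0.0607) with all samples and 2.01 (SE 0.30, adjusted p = 0.00627) without 2011G1.

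Among bHLH factors, 0 of 36 tested were called with all 8 samples (17 had an unadjusted p under 0.05, and DESeq2 called 8 that fell), and 16 fell and 0 rose without 2011G1, with a median log2 ratio of -1.10, against 8.84% lower and 4.93% higher over all transcripts. With all 8 samples, 4512 of all 18714 transcripts had such an unadjusted p, and DESeq2 called 1204 that fell. The bHLH35-like XM_002263963.2 had 14.9, 5.996, 29.3 and 18.4 RPKM in the E-L35 samples, against 9.72, 69.7, 247 and 129 RPKM in the E-L31 samples. In 2011G1 it was below the values of GT 2011, CL 2011 and CL 2010 of E-L35, so the stages overlapped. EdgeR gave it a log2 ratio of -2.73 (SE 0.19, adjusted p = 0.000750) without 2011G1 and -2.23 (SE 0.64, adjusted p = 0.114) with it. The MYC2-like XM_002280217.2, related to the Arabidopsis regulator of jasmonate responses, had 35.9, 23.1, 46.4 and 21.8 RPKM in the E-L35 samples, against 24.9, 73.4, 128 and 95.6 RPKM in the E-L31 samples. For it the log2 ratio was -1.41 without 2011G1 (adjusted p = 0.00204 by edgeR) and -0.99 with it (adjusted p = 0.194). A GLABRA 3-like transcript (XM_002270203.2), related to a trichome factor, reached at most 4.01 RPKM and fell by 2.32 on the log2 scale without 2011G1 (adjusted p = 0.00455 by edgeR, and -1.82 with adjusted p = 0.157 in all 8 samples).

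WRKY factors, many of which act in stress responses, showed 0 of 20 called by edgeR with all 8 samples (9 at an unadjusted p under 0.05), while DESeq2 called 4 that fell and 1 that rose. Over all 18714 transcripts, DESeq2 called 1204 that fell and 509 that rose, and 4512 had such an unadjusted p. Without 2011G1, 6 of the 20 fell and 1 rose, with a median log2 ratio of -1.16, against 8.84% lower and 4.93% higher over all transcripts, so the share that rose is near that of all transcripts. That one, WRKY23-like XM_002277846.2, had 113, 111, 219 and 162 RPKM in the E-L35 samples, against 117, 26.5, 55.5 and 43.2 RPKM in the E-L31 samples. Apart from 2011G1, every E-L31 sample was below every E-L35 sample. Its E-L35 over E-L31 log2 ratio was 2.27 (SE 0.15, adjusted p = 0.000648) without 2011G1 and 1.67 (SE 0.48, adjusted p = 0.114) with it, by edgeR. The WRKY46-like XM_002280995.1 had 15.4, 6.96, 28.1 and 8.42 RPKM in the E-L35 samples, against 7.96, 26.4, 152 and 82.0 RPKM in the E-L31 samples, with a log2 ratio of -2.16 (SE 0.21, adjusted p = 0.00173, and -1.55 with adjusted p = 0.183 in all 8 samples) without 2011G1. CL 2011 had the highest value of both stages for WRKY46-like and the highest E-L35 value for WRKY23-like.

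Smaller families were called mainly without 2011G1, in which fit 8.84% of all transcripts fell and 4.93% rose. With all 8 samples, DESeq2 called 1204 of all 18714 transcripts that fell, and 4512 had an unadjusted p under 0.05 in edgeR. Of 11 TCP factors, which control cell division in growing organs, 0 were called by edgeR with all 8 samples (6 at an unadjusted p under 0.05, and 3 fell by DESeq2) and 4 fell without 2011G1 (median log2 ratio -0.99), among them the TCP4-like XM_002279292.2 with 1.96, 4.39, 2.59 and 2.24 RPKM in the E-L35 samples, against 4.92, 26.6, 8.99 and 13.7 RPKM in the E-L31 samples. Its stages did not overlap, and its log2 ratio without 2011G1 was -2.20 (SE 0.31, adjusted p = 0.00524, and -1.92 with adjusted p = 0.0714 in all 8 samples). Over all transcription factors that the study lists, 0 of 253 tested rose and 8 fell with all 8 samples, and 5 rose and 102 of 252 fell without 2011G1. The shares over all transcripts were 0.0695% and 0.668% with all 8 samples, and 4.93% and 8.84% without 2011G1. The study picked these factors on the same samples, so the counts describe the list. Of 14 GATA, trihelix and bZIP factors, 0 were called by edgeR with all 8 samples (6 at an unadjusted p under 0.05, and 3 fell by DESeq2), and 4 fell and 1 rose without 2011G1. The GATA9-like XM_002282189.2 had 2.77, 3.23, 2.146 and 3.48 RPKM in the E-L35 samples, against 3.88, 33.5, 15.8 and 26.5 RPKM in the E-L31 samples, and fell without 2011G1 with a log2 ratio of -2.75 (SE 0.20, adjusted p = 0.000775, and -2.37 with adjusted p = 0.0674 in all 8 samples). The one that rose was a GATA5-like transcript (XM_002272726.1, log2 ratio without 2011G1 of 1.81, SE 0.51, adjusted p = 0.0495, and 1.36 with adjusted p = 0.219 in all 8 samples). It had 7.76, 8.22, 9.73 and 19.2 RPKM in the E-L35 samples, against 7.91, 1.58, 10.2 and 3.54 RPKM in the E-L31 samples. Within the pairs its log2 ratio was -0.02 in GT 2011, 2.56 in GT 2010, 0.30 in CL 2011 and 2.95 in CL 2010, so the rise rests on 2010. Another GATA5-like transcript, XM_002274836.1, fell (-1.61, SE 0.32, adjusted p = 0.0168, and -1.15 with adjusted p = 0.196 in all 8 samples).

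Of 10 NF-Y subunits, 2 fell and 1 rose without 2011G1, against 8.84% lower and 4.93% higher over all transcripts, and 0 were called by edgeR with all 8 samples (4 at an unadjusted p under 0.05, and 2 fell by DESeq2). Of 5 heat stress factors, 0 were called by edgeR with all 8 samples (3 at an unadjusted p under 0.05, and 2 fell by DESeq2) and 2 fell without 2011G1, the C-1-like XM_002280992.1 (-1.95, adjusted p = 0.00708, and -1.40 with adjusted p = 0.169 in all 8 samples) and the A-3-like XM_002277302.2 (-1.52, adjusted p = 0.0199, and -1.28 with adjusted p = 0.116 in all 8 samples). The GLK1-like XM_002275194.2, related to an Arabidopsis activator of chloroplast development, had 1.52, 2.95, 1.84 and 1.23 RPKM in the E-L35 samples, against 3.93, 22.2, 7.72 and 13.8 RPKM in the E-L31 samples. The E-L35 samples lay all below the E-L31 samples, and the log2 ratio was -2.53 (SE 0.34, adjusted p = 0.00427) without 2011G1 and -2.18 (SE 0.43, adjusted p = 0.0705) with it, by edgeR. PHYE (XM_002271635.2), which encodes a phytochrome, had 6.67, 4.57, 5.27 and 4.29 RPKM in the E-L35 samples, against 8.13, 19.8, 15.7 and 24.9 RPKM in the E-L31 samples. It fell without 2011G1 with a log2 ratio of -1.64 (SE 0.21, adjusted p = 0.00399, and -1.35 with adjusted p = 0.0784 in all 8 samples), and its value in 2011G1 was the nearest to E-L35. PSBP1 (XM_002283012.2), a subunit of photosystem II, had 144, 167, 303 and 299.7 RPKM in the E-L35 samples, against 179, 496, 465 and 459 RPKM in the E-L31 samples and was not called without 2011G1 (log2 ratio -0.69, SE 0.26, adjusted p = 0.112, and -0.55 with adjusted p = 0.263 in all 8 samples).

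**Figure D3:**
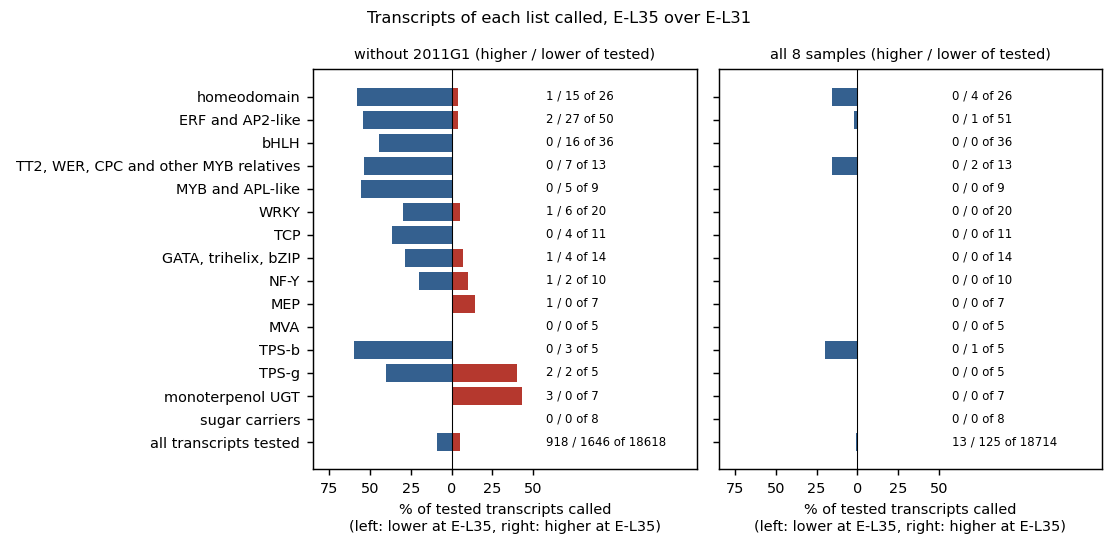
Percent of the tested transcripts of each list that were called lower (left of 0) or higher (right of 0) at E-L35 than at E-L31, without 2011G1 and with all 8 samples; the numbers give transcripts higher, lower and tested. Without 2011G1, 15 of 26 homeodomain and 27 of 50 ERF and AP2-like transcripts were lower, against 1646 of 18618 of all transcripts tested.

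The transcripts that rose with all 8 samples carried no name in the sources used here. Among those of at least 20 RPKM whose stages did not overlap, the largest ratio was that of XM_002274239.1, with 19.7, 21.3, 71.4 and 69.2 RPKM in the E-L35 samples, against 3.85, 0.696, 1.13 and 2.46 RPKM in the E-L31 samples. Its log2 ratio was 4.52 (SE 0.70, adjusted p = 0.0498) by edgeR, and 5.65 (SE 0.25, adjusted p = 0.000400) without 2011G1. The next, XM_002276331.2, had 115, 77.04, 147 and 228 RPKM in the E-L35 samples, against 37.6, 17.6, 51.8 and 36.4 RPKM in the E-L31 samples and a log2 ratio of 2.03 (SE 0.25, adjusted p = 0.0467, and 2.22 with adjusted p = 0.00209 without 2011G1), but none of its reads mapped uniquely. By the same rule the largest fall was that of XM_002263377.1, which also carries no name, with 0, 0.0617, 0.219 and 0.198 RPKM in the E-L35 samples, against 18.4, 2.003, 100.3 and 1.27 RPKM in the E-L31 samples. It was highest in both E-L31 samples of 2011 and at most 2.003 RPKM in those of 2010.

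PL1 (XM_002285603.2), a symbol used in grape for a pectate lyase, an enzyme that cuts cell wall pectin, had 1067, 697, 1005 and 677 RPKM in the E-L35 samples, against 771, 14.0, 131 and 120.1 RPKM in the E-L31 samples. It was the most abundant of the named transcripts that rose, and 2011G1 had several times the level of the other E-L31 samples. On the log2 scale its stages differed by 4.0 (SE 0.66, adjusted p = 0.00905) without 2011G1 and 2.53 (SE 0.97, adjusted p = 0.179) with it, by edgeR. Within the pairs it was 0.47 in GT 2011, 5.92 in GT 2010, 3.21 in CL 2011 and 2.98 in CL 2010.

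VviMYBA2, described above, had a log2 ratio of 3.34 (SE 2.88, adjusted p = 0.501) with all 8 samples, by edgeR. Since its value in 2011G1 marked that sample as standing apart, no test without it is given. Its E-L35 level itself varied among samples, lowest in CL 2011 and highest in GT 2010. Its E-L31 samples averaged 13.8 ± 27.4 RPKM, those of E-L35 28.1 ± 20.9 RPKM, those of E-L36 83.7 ± 31.7 RPKM and those of E-L38 35.1 ± 12.5 RPKM (SD, n = 4 each). The E-L31 mean without 2011G1 was 0.0963 RPKM (SD 0.0986, n = 3).

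A pair of transcripts of 1-aminocyclopropane-1-carboxylate oxidase (ACO), the last enzyme of ethylene synthesis, moved in opposite directions without 2011G1. The ACO1-like XM_002279710.2 had 77.2, 64.9, 40.1 and 41.3 RPKM in the E-L35 samples, against 114, 0.798, 1.21 and 0.483 RPKM in the E-L31 samples. The highest value of all 8 was that of 2011G1, and the other E-L31 samples were lowest. EdgeR gave it a log2 ratio of 6.09 (SE 0.32, adjusted p = 0.000503) without 2011G1 and 3.56 (SE 1.78, adjusted p = 0.266) with it. ACO1 (XM_002273394.2) had 33.5, 21.3, 5.77 and 11 RPKM in the E-L35 samples, against 34.7, 142, 81.9 and 149 RPKM in the E-L31 samples. For it the log2 ratio was -2.82 (SE 0.41, adjusted p = 0.00603) without 2011G1 and -2.32 (SE 0.57, adjusted p = 0.0906) with it, and no E-L35 sample reached the E-L31 values, although GT 2011 of E-L35 and 2011G1 were close to each other.

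Of the 7 transcripts of ethylene synthesis and signalling tested, these and a TAT2-like aminotransferase (XM_002282628.2, 11% of its reads unique), which rose, were called without 2011G1, and 0 with all 8 samples by edgeR (1 at an unadjusted p under 0.05), where DESeq2 called 1 in each direction. In the fit without 2011G1, 4.93% of all transcripts rose and 8.84% fell. An ethylene receptor 2-like transcript (XM_002284471.1) had 13.2, 14.7, 35.9 and 24.5 RPKM in the E-L35 samples, against 16.3, 27.9, 80.4 and 35.3 RPKM in the E-L31 samples, and its log2 ratio of -0.71 (SE 0.26, adjusted p = 0.106, and -0.55 with adjusted p = 0.281 in all 8 samples) without 2011G1 did not pass the test. Neither did any of the 4 transcripts of polyamine synthesis, which shares a precursor with ethylene, in either fit (1 at an unadjusted p under 0.05 with all 8 samples, and 0 called by DESeq2). Such an unadjusted p was found for 4512 of all 18714 transcripts.

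For abscisic acid, 1 of 5 tested transcripts rose without 2011G1, against 4.93% of all transcripts. With all 8 samples edgeR called 0 of the 5 (1 at an unadjusted p under 0.05), where DESeq2 called 1. Of all 18714 transcripts, 4512 had such an unadjusted p, and DESeq2 called 1713 in either direction. The PYR1-like receptor XM_002280325.1 had 40.5, 41.9, 111 and 88.8 RPKM in the E-L35 samples, against 39.1, 34.6, 19.9 and 31.3 RPKM in the E-L31 samples. The CL samples of E-L35 had the highest values, and GT 2011 differed little between E-L35 and E-L31. Its E-L35 over E-L31 log2 ratio was 1.72 (SE 0.42, adjusted p = 0.0307) without 2011G1 and 1.33 (SE 0.46, adjusted p = 0.154) with it, by edgeR. The 8'-hydroxylase 4-like transcript XM_002282197.1, an enzyme of abscisic acid breakdown, stayed at or below 2.06 RPKM in all 8 samples and was not called without 2011G1 (log2 ratio 0.02, SE 0.47, adjusted p = 0.983, and 0.10 with adjusted p = 0.904 in all 8 samples).

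Carotenoid transcripts differed in direction, with 2 of 4 tested higher and 1 lower without 2011G1, against 4.93% higher and 8.84% lower over all transcripts. With all 8 samples 0 were called (3 at an unadjusted p under 0.05, and 3 called by DESeq2). Over all 18714 transcripts these counts were 4512 and 1713. A carotenoid cleavage dioxygenase 4-like transcript (CCD4-like, XM_002270125.1) had 13.8, 12.1, 42.0 and 54.1 RPKM in the E-L35 samples, against 13.2, 0.663, 6.89 and 3.96 RPKM in the E-L31 samples. Its log2 ratio was 3.72 (SE 0.32, adjusted p = 0.00121) without 2011G1 and 2.58 (SE 0.90, adjusted p = 0.156) with it, by edgeR. A phytoene synthase-like transcript (XM_002283157.2), the first committed enzyme of carotenoid synthesis, rose without 2011G1 (log2 ratio 1.68, SE 0.31, adjusted p = 0.0129, and 1.27 with adjusted p = 0.143 in all 8 samples), but 4.70% of its reads were unique. The other phytoene synthase-like transcript, XM_002271539.2, with unique reads only, had 43.4, 26.0, 21.8 and 13.2 RPKM in the E-L35 samples, against 25.2, 47.5, 37.5 and 48.4 RPKM in the E-L31 samples and was not called (log2 ratio -0.75, SE 0.23, adjusted p = 0.0631, and -0.41 with adjusted p = 0.449 in all 8 samples). The capsanthin/capsorubin synthase-like XM_002273826.1 fell without 2011G1, with 9.07, 7.62, 3.21 and 1.95 RPKM in the E-L35 samples, against 6.16, 39.7, 14.9 and 14.0 RPKM in the E-L31 samples and a log2 ratio of -2.22 (SE 0.15, adjusted p = 0.000725, and -1.70 with adjusted p = 0.135 in all 8 samples). Its value in 2011G1 lay within the range of the E-L35 samples.

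**Figure D4:**
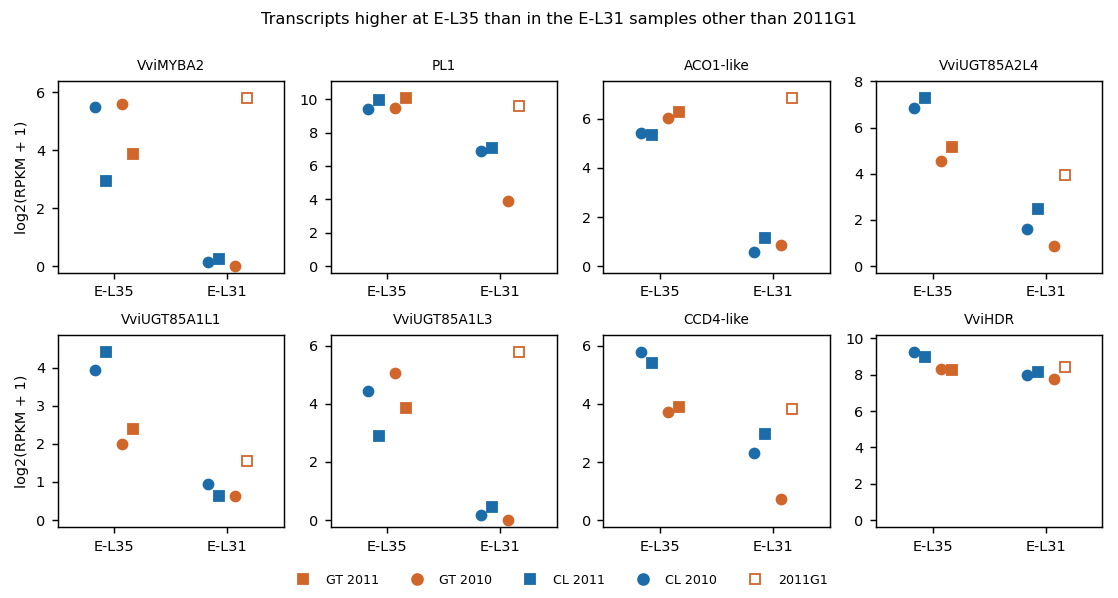
Levels in log2(RPKM + 1) of 8 transcripts that were higher in the E-L35 samples (left) than in the E-L31 samples (right) other than 2011G1, coloured by vineyard and shaped by vintage, with 2011G1 as an open square. For VviMYBA2, ACO1-like and VviUGT85A1L3 the open square lies above all E-L35 samples, with 54.8, 114 and 53.7 RPKM, while VviUGT85A2L4 and VviUGT85A1L1 keep all 4 E-L35 samples above all 4 E-L31 samples.

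Of 7 tested glycosyltransferases of monoterpenols, 3 rose without 2011G1, against 4.93% of all transcripts. VviUGT85A2L4 (VviGT14, XM_002285734.2), whose enzyme glucosylates monoterpenols in grape, had 35.1, 22.5, 154 and 115 RPKM in the E-L35 samples, against 14.5, 0.8288, 4.49 and 2.04 RPKM in the E-L31 samples. All 4 E-L35 samples lay above all 4 E-L31 samples, the CL samples of E-L35 above the GT samples, and 2011G1 above the other E-L31 samples. On the log2 scale its stages differed by 5.70 (SE 0.28, adjusted p = 0.000499) without 2011G1 and 4.22 (SE 1.06, adjusted p = 0.0948) with it, by edgeR. Within the pairs the log2 ratio was 1.27 in GT 2011, 4.91 in GT 2010, 5.35 in CL 2011 and 6.31 in CL 2010.

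VviUGT85A1L1 (XM_002285742.2), a close relative, had 4.28, 2.95, 20.2 and 14.3 RPKM in the E-L35 samples, against 1.91, 0.556, 0.563 and 0.937 RPKM in the E-L31 samples. Here too the stages did not overlap and the CL samples led at E-L35. EdgeR gave it a log2 ratio of 4.61 (SE 0.44, adjusted p = 0.00165) without 2011G1 and 3.33 (SE 0.80, adjusted p = 0.0886) with it. VviUGT85A1L3 (XM_002268601.2) had 13.5, 32.0, 6.47 and 20.7 RPKM in the E-L35 samples, against 53.7, 0, 0.379 and 0.118 RPKM in the E-L31 samples. It differed from its relatives in 2011G1, which had the highest value of all 8 samples, and at E-L35, where GT 2010 and not CL led. For it the log2 ratio was 6.33 (SE 0.72, adjusted p = 0.00269) without 2011G1 and 3.11 (SE 2.54, adjusted p = 0.479) with it.

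None of the 7 monoterpenol UGTs was called by edgeR with all 8 samples (4 at an unadjusted p under 0.05, and 2 rose by DESeq2). Over all 18714 transcripts these counts were 4512 and 509. The median log2 ratio of the 7 was -0.05 without 2011G1 and 0.12 with it. The other members differed less between the stages. VviUGT88A1L3 (VviGT7, XM_002276510.1) had 14.0, 20.2, 38.8 and 26.0 RPKM in the E-L35 samples, against 24.9, 27.3, 64.5 and 67.6 RPKM in the E-L31 samples, with a log2 ratio of -0.56 (SE 0.20, adjusted p = 0.0983, and -0.55 with adjusted p = 0.140 in all 8 samples) without 2011G1, and VviUGT88A1L4 (VviGT15, XM_002281477.2) had a log2 ratio of -0.77 (SE 0.13, adjusted p = 0.0110, and -0.51 with adjusted p = 0.256 in all 8 samples), which did not reach the minimum ratio. VviUGT86A1L (XM_002276822.1) had 2.68, 3.08, 1.43 and 2.90 RPKM in the E-L35 samples, against 2.58, 6.27, 4.49 and 6.01 RPKM in the E-L31 samples and was not called, and VviUGT88A1L1 (XM_002276679.2) stayed at or below 4.90 RPKM in each sample. VviUGT85A2L5 (VviGT16, XM_002263122.1) had too few reads to be tested. Among 16 tested UGTs that the study grouped with these by sequence, 0 were called by edgeR with all 8 samples (7 at an unadjusted p under 0.05, and by DESeq2 1 rose and 2 fell), 2 rose without 2011G1, VviUGT85A1L1 and VviUGT85A1L3 themselves, and the 3 that fell (85A1L2, 85A1L5 and 85A1L7) reached at most 1.40 RPKM. The shares of all transcripts without 2011G1 were 4.93% higher and 8.84% lower.

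Upstream of the monoterpenols, VviHDR (XM_002284623.2), the last enzyme of the MEP pathway, was the most abundant listed transcript of terpene synthesis at E-L35. It had 303, 322, 509 and 605 RPKM in the E-L35 samples, against 339, 214, 281 and 251 RPKM in the E-L31 samples. Its E-L35 over E-L31 log2 ratio was 1.18 (SE 0.21, adjusted p = 0.0123) without 2011G1, which was a call, and 0.87 (SE 0.34, adjusted p = 0.180) with all samples. In GT 2011 alone the E-L31 sample was the higher of the pair. VviDXS (XM_002277883.2), the first enzyme, had 31.9, 25.7, 42.6 and 39.6 RPKM in the E-L35 samples, against 39.4, 76.0, 78.3 and 93.6 RPKM in the E-L31 samples. Its log2 ratio of -0.86 (SE 0.16, adjusted p = 0.0128, and -0.74 with adjusted p = 0.0881 in all 8 samples) without 2011G1 passed the adjusted p and not the minimum ratio, as did that of VviDXR, the second enzyme (XM_002282725.1, -0.60, SE 0.14, adjusted p = 0.0306, and -0.47 with adjusted p = 0.170 in all 8 samples). Of the 7 MEP transcripts, all for these enzymes or further DXS isoforms, 1 rose and 0 fell without 2011G1 (median log2 ratio -0.77), against 4.93% and 8.84% of all transcripts. With all 8 samples 0 were called by edgeR or DESeq2 (4 at an unadjusted p under 0.05 in edgeR).

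Of the 5 MVA transcripts, 0 were called in either fit by edgeR, nor by DESeq2 with all 8 samples (0 at an unadjusted p under 0.05 in edgeR). The acetyl-CoA acetyltransferase XM_002265654.2 had 264, 301, 239.7 and 238 RPKM in the E-L35 samples, against 308, 175, 227 and 224 RPKM in the E-L31 samples, with a log2 ratio of 0.65 (SE 0.16, adjusted p = 0.0336, and 0.42 with adjusted p = 0.305 in all 8 samples) without 2011G1, below the minimum ratio. VviHMGR1 (XM_002265602.1), an isoform of the enzyme that makes mevalonate, had 31.4, 22.2, 13.3 and 13.2 RPKM in the E-L35 samples, against 21.5, 52.7, 24.8 and 34.3 RPKM in the E-L31 samples and a log2 ratio of -0.76 (SE 0.17, adjusted p = 0.0249, and -0.50 with adjusted p = 0.274 in all 8 samples) without 2011G1, likewise below it. VviGPPS (XM_002268193.2) and VviFPPS (XM_002272605.2), which make the precursors of monoterpenes and sesquiterpenes, had log2 ratios of 0.43 (SE 0.14, adjusted p = 0.0714, and 0.30 with adjusted p = 0.267 in all 8 samples) and -0.27 (SE 0.14, adjusted p = 0.212, and -0.16 with adjusted p = 0.545 in all 8 samples) without 2011G1. In the 8 samples the levels of both lay within 11.3 to 70.4 RPKM.

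Of 5 tested terpene synthases of the TPS-b subfamily, which make mainly cyclic and other monoterpenes, 1 fell with all 8 samples and 3 fell without 2011G1. The shares of all transcripts that fell were 0.668% and 8.84%. XM_003634850.1 had 1.08, 3.01, 1.05 and 1.29 RPKM in the E-L35 samples, against 6.66, 43.2, 12.7 and 22.9 RPKM in the E-L31 samples. The stages did not overlap and GT 2010 had the highest value of each stage. Its log2 ratio was -3.34 (SE 0.35, adjusted p = 0.0422) by edgeR, and -3.60 (SE 0.23, adjusted p = 0.000648) without 2011G1. XM_002267123.1 had 0.0929, 0.710, 0.174 and 0.468 RPKM in the E-L35 samples, against 0.816, 1.77, 2.46 and 3.01 RPKM in the E-L31 samples, with 23.9% of its reads unique. XM_002266772.1 had 0, 0, 0 and 0 RPKM in the E-L35 samples, against 0, 0, 0.923 and 0.361 RPKM in the E-L31 samples. The remaining 8 of the 13 listed TPS-b transcripts had too few reads to be tested.

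The TPS-g subfamily, which makes acyclic alcohols such as linalool and geraniol, went both ways without 2011G1. Of 5 tested, 2 were higher and 2 lower, against 4.93% and 8.84% of all transcripts. With all 8 samples edgeR called 0 (2 at an unadjusted p under 0.05, and 2 fell by DESeq2). XM_003635129.1 had 2.97, 16.5, 0.159 and 3.54 RPKM in the E-L35 samples, against 8.74, 0, 0.0325 and 0.182 RPKM in the E-L31 samples. Values spread widely within E-L35, and 2011G1 exceeded 3 of the 4 E-L35 samples. On the log2 scale its stages differed by 5.26 (SE 0.94, adjusted p = 0.0118) without 2011G1 and 1.78 (SE 1.81, adjusted p = 0.571) with it, by edgeR. XM_002270071.2 had 0.4002, 0.0776, 0.260 and 0.339 RPKM in the E-L35 samples, against 0.148, 1.34, 7.21 and 2.33 RPKM in the E-L31 samples and fell without 2011G1 (log2 ratio -3.37, SE 0.54, adjusted p = 0.00842, and -2.83 with adjusted p = 0.140 in all 8 samples). Of their reads, 28.8% and 72.1% mapped to 1 transcript only, so the values depend on how shared reads were divided within the subfamily. The single TPS-a transcript tested of 7 listed, XM_002263544.2, which belongs to the sesquiterpene synthases, had 0.0735, 0.147, 0 and 0.0146 RPKM in the E-L35 samples, against 0.0576, 1.72, 1.73 and 1.07 RPKM in the E-L31 samples and fell without 2011G1 (log2 ratio -4.78, SE 0.75, adjusted p = 0.00756, and -4.12 with adjusted p = 0.111 in all 8 samples).

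Phenylpropanoid and defence transcripts with a RefSeq symbol were grouped after the files were seen. Of 5 phenylpropanoid transcripts tested, 1 fell with all 8 samples and 2 without 2011G1, against 0.668% and 8.84% of all transcripts. None rose in either fit, and with all 8 samples 1 of the 5 had a log2 ratio above 0 and 4 below. The 3 described here are among those below. OMT1 (XM_002277566.2), the symbol of an O-methyltransferase, had 5.59, 7.999, 2.91 and 4.15 RPKM in the E-L35 samples, against 15.9, 60.7, 28.9 and 48.0 RPKM in the E-L31 samples. Its stages did not overlap, and its log2 ratio was -2.60 (SE 0.30, adjusted p = 0.0425) by edgeR, and -2.90 (SE 0.15, adjusted p = 0.000503) without 2011G1. 4CL (XM_002274958.2), the ligase that activates coumaric acid, had 3.78, 10.3, 3.75 and 4.01 RPKM in the E-L35 samples, against 6.56, 25.7, 20.2 and 16.1 RPKM in the E-L31 samples and fell without 2011G1 (log2 ratio -1.67, SE 0.34, adjusted p = 0.0184, and -1.38 with adjusted p = 0.127 in all 8 samples). CHS3 (XM_002263983.1), a chalcone synthase, had 4.0005, 102, 1.82 and 6.91 RPKM in the E-L35 samples, against 33.6, 49.9, 72.3 and 15.6 RPKM in the E-L31 samples. Its samples ranged widely within each stage, with GT 2010 highest at E-L35, and the log2 ratio of -1.75 (SE 1.59, adjusted p = 0.524, and -2.09 with adjusted p = 0.413 without 2011G1) did not pass.

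Of 6 PR10 transcripts tested, which encode pathogenesis-related proteins, 2 rose without 2011G1, against 4.93% of all transcripts. With all 8 samples 0 were called by edgeR or DESeq2 (2 at an unadjusted p under 0.05 in edgeR). Such an unadjusted p was found for 4512 of all 18714 transcripts. PR10.2 (XM_002274206.2) had 118, 225, 243 and 360.1 RPKM in the E-L35 samples, against 106, 36.01, 83.0 and 261 RPKM in the E-L31 samples, and a log2 ratio of 1.92 (SE 0.39, adjusted p = 0.0177, and 1.25 with adjusted p = 0.188 in all 8 samples) without 2011G1. Its E-L31 value in CL 2010 was above 3 of the 4 E-L35 values. Of 8 sugar carriers tested, 0 were called in either fit by edgeR, nor by DESeq2 with all 8 samples (2 at an unadjusted p under 0.05 in edgeR). TMT2 (XM_002282939.1), a tonoplast sugar transporter, had 179.5, 181, 98.2 and 81.4 RPKM in the E-L35 samples, against 224, 115, 87.3 and 77.3 RPKM in the E-L31 samples with 5.40% of its reads unique, and VGT2 (XM_002280598.1), a vacuolar glucose transporter, had 2.55, 2.67, 2.48 and 2.28 RPKM in the E-L35 samples, against 2.79, 4.53, 7.35 and 6.56 RPKM in the E-L31 samples, with log2 ratios of 0.63 (SE 0.14, adjusted p = 0.0241, and 0.39 with adjusted p = 0.326 in all 8 samples) and -0.95 (SE 0.22, adjusted p = 0.0272, and -0.74 with adjusted p = 0.148 in all 8 samples) without 2011G1. Both passed the adjusted p and not the minimum ratio.

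After véraison the levels of these members parted. VviUGT85A2L4 averaged 81.9 ± 63.5 RPKM in the E-L35 samples, 125 ± 78.7 RPKM in those of E-L36 and 93.9 ± 26.2 RPKM in those of E-L38 (SD, n = 4 samples each). CCD4-like was at 30.5 ± 20.9, 81.2 ± 17.8 and 121 ± 17.4 RPKM, and PL1 at 862 ± 203, 474 ± 183 and 216 ± 83.5 RPKM at the same stages. ACO1-like was at 55.9 ± 18.3, 62.3 ± 43.9 and 14.8 ± 8.38 RPKM. Means of PL1 and ACO1-like were thus lowest at E-L38 and that of CCD4-like was highest there, with no test made across these stages. Of the transcripts that fell, HAT14-like XM_002275711.1 was at 1.48 ± 0.970, 0.264 ± 0.121 and 0.147 ± 0.227 RPKM, and OMT1 at 5.16 ± 2.19, 1.37 ± 0.656 and 1.44 ± 0.574 RPKM.

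**Figure D5:**
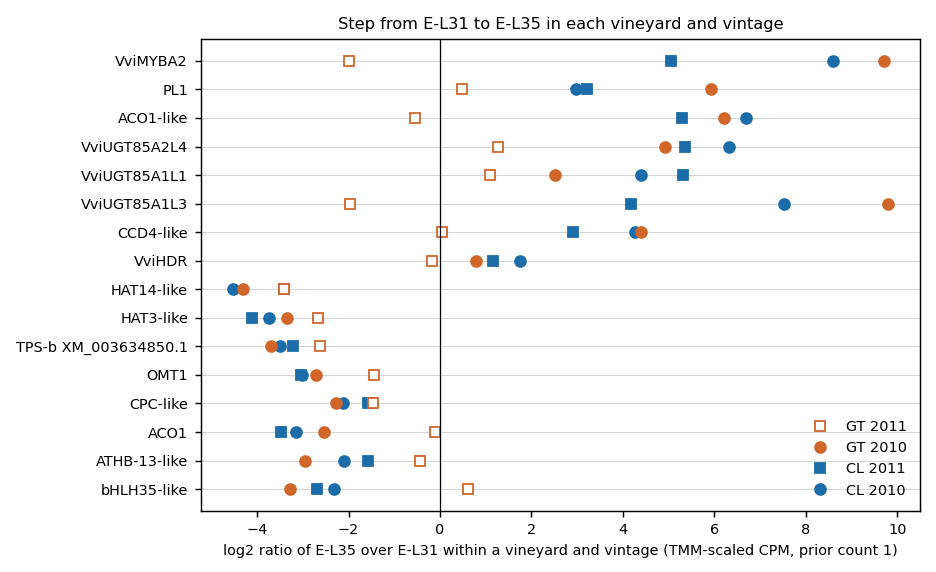
Log2 ratio of E-L35 over E-L31 within each vineyard and vintage (TMM-scaled log2 CPM with a prior count of 1) for 16 transcripts, with the GT 2011 pair as open squares. The open square is the point nearest to 0 or on its other side in each row except HAT14-like, where CL 2011 has the same value, as for PL1 with 0.47 in GT 2011 and 5.92 in GT 2010.

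Whether the step differed between the regions was tested as the interaction of stage and region. With all 8 samples edgeR called 0 of 18714 transcripts (0%), against 1305 at an unadjusted p under 0.05, with a smallest adjusted p of 0.406, and DESeq2 called 139. VviUGT85A2L4, with a log2 ratio of the GT step over the CL step of -3.66 (adjusted p = 0.671), was not among edgeR's calls, nor without 2011G1, when it was -0.87 (adjusted p = 0.658). For PL1 the ratio was -1.20 with 2011G1 (adjusted p = 0.897) and 2.89 without it (adjusted p = 0.219), so its sign turned with that sample. Without 2011G1 edgeR called 0, with 2669 at an unadjusted p under 0.05, without the E-L31 sample of GT 2010 it called 387, and without the E-L35 sample of GT 2011 it called 1. In each of these fits 1 GT sample alone stood for 1 of the stages.

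Between the vintages, edgeR called 1 of 18714 transcripts (0.00534%), and DESeq2 186. The transcript, XM_002265561.1, carries no name in the sources used here. It had 0.835, 0.814, 2.43 and 1.56 RPKM in the E-L35 samples, against 44.0, 0, 141 and 0.239 RPKM in the E-L31 samples. It was high only in the E-L31 samples of 2011, and the log2 ratio of the 2011 step over the 2010 step was -9.22 (adjusted p = 0.0229 by edgeR). Without 2011G1, 16 of 18618 transcripts were called (0.0859%), all with the lower ratio in 2011. CL 2011 alone then stood for E-L31 of 2011, so a difference of vintage and 1 of that sample cannot be told apart. The one with a name among them was the RAP2-3-like ethylene response factor XM_002272390.1, with 1.29, 2.05, 0.885 and 0.929 RPKM in the E-L35 samples, against 6.40, 1.65, 57.6 and 0.522 RPKM in the E-L31 samples. CL 2011 of E-L31 had by far its highest value, and the difference of the steps was -6.87 (adjusted p = 0.0403) without 2011G1. Without the E-L31 sample of CL 2011, when 2011G1 alone stood for E-L31 of 2011, 348 transcripts were called.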

How the data were processed

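The authors trimmed 2 nucleotides from each read end, dropped reads under 60 nt or with more than 2 ambiguous bases, and mapped with CLC Genomics Workbench (version not given in the sources used here) to grapevine RefSeq mRNAs, allowing 2 mismatches and 10 hits. A read with several hits was shared in proportion to unique reads. The deposited files hold total and unique read counts per transcript, and RPKM values made by the authors. Here the counts of a sample's libraries were summed and their RPKM averaged. A transcript that shares reads with near copies can gain or lose counts by this sharing.

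The 8 samples were compared in edgeR 4.0.16 (R 4.3.3) by quasi-likelihood tests with TMM scaling, region and vintage as blocks and at least 10 counts in at least 2 samples. SE is the absolute log2 ratio over the root of F. A transcript was called when its p, adjusted by Benjamini-Hochberg over all transcripts tested, did not exceed 0.05 and its log2 ratio was 1 or more in either direction, limits taken from the study. Residual degrees of freedom were 4, and 3 without 2011G1. The p-values measure the spread left between single samples after additive differences between the 2 vineyards and the 2 vintages are taken out. Ratios within a pair used log2 CPM with a prior count of 1. Alternatives used DESeq2 1.42.0 and limma 3.58.1 on log2(RPKM + 1) or log2(RPKM + 0.1), other scalings, filters, libraries and blocks, unique reads, all 16 samples and each sample left out.

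The 23984 records carry no names. Names came from the study's annotations (367 records) and RefSeq symbols (54), 420 records in all, so most called transcripts are not described. Of 31 keyword lists, 20 matched no record. Named are the members of the terpene lists; in each direction the 15 called with the largest ratio among those with at least 20 RPKM and no overlap, and the 10 most abundant; the 2 most abundant called of each keyword list; for the interactions, the 5 of smallest p; and at most 2 unnamed records in each direction. The same was applied without 2011G1. Other transcripts, among them those with a RefSeq symbol, were chosen after their values were seen. Members and lists were chosen with earlier results of these data known. A second mapping to terpene synthases was not used here.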

Additional observations from a re-analysis of the deposited data

Results flagged for a closer look

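In groups of 4 samples, 1 sample was taken to stand apart when its gap to the nearest other exceeded Dixon's 95% limit as a share of the range. Of 151 groups of named transcripts, 13 did. The limit gives about 1 in 20 for independent normal values. RPKM of transcripts chosen partly by their calls are not such values, so the 13 are not set against chance. Many of these transcripts were named because they were called without 2011G1, so the number in which that sample stands apart is a description and is not set against chance. In 6 of them the sample was 2011G1 at E-L31, with the ratio of gap to range at 0.996 for VviMYBA2, 0.994 for ACO1-like, 0.993 for VviUGT85A1L3, 0.979 for TPS-g XM_003635129.1, 0.908 for TPS-g XM_003635122.1 and 0.845 for PL1. GT 2010 stood apart at E-L35 as the highest sample for HAT3-like (0.883), TPS-b XM_003634850.1 (0.877), TPS-b XM_002267417.1 (0.871) and VviGPPS (0.867), and as the lowest for DXS-like XM_002271549.1 (0.841). This is also the sample whose libraries differed most from each other. GT 2010 was the highest E-L31 sample for the HMG-CoA reductase XM_002275791.2 (0.930), and CL 2011 for DXS-like XM_002271746.2 (0.922).

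The step of XM_002265561.1 differed between the vintages, with a log2 ratio of the 2011 step over the 2010 step of -9.22 (adjusted p = 0.0229 by edgeR). It was higher in both E-L31 samples of 2011 than in both of 2010. With at least 50 counts in 4 samples required, 0 transcripts were called between the vintages.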

How the results depend on the processing

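With all 8 samples, the 138 calls became 1713 with DESeq2 (509 higher and 1204 lower), 879 with all 16 samples in the fit and 2 with Bonferroni adjustment. They became 0 with at least 50 counts in 4 samples (3526 at an unadjusted p under 0.05), 0 with limma on log2(RPKM + 1) (5188) and 0 with no replicate block, that is without region and vintage (4072). Counts between 112 and 194 came from RLE size factors, library totals, no filter, 1 library per sample, unique reads, limma on log2(RPKM + 0.1) and a replicate block of the 4 pairs (129). Leaving out 1 sample gave 0 to 2564 calls. The cause of these moves was not tested, beyond the smaller number of samples or transcripts.

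Without 2011G1, the count of 2564 lay between 1875 and 3323 under 10 other settings, 2416 of them with no replicate block and 2130 with the 3 remaining pairs as a replicate block. Library totals lowered the median log2 ratio of all transcripts by 0.25, and by 0.33 without 2011G1. Deviations from the stage means correlated between the samples of a pair at -0.02 to 0.24. Vineyard and vintage were not removed, so the samples of a pair had little deviation in common even with these included.

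Between regions, the 0 calls became 139 with DESeq2 and ranged from 0 to 387 with 1 sample left out. Between vintages, the 1 call became 186 with DESeq2, 3 with 1 library per sample, 0 with the 50-count filter and 0 to 348 with 1 sample left out.

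Of the values of 82 transcripts under the alternatives, 1368 kept direction and side of the limits, 91 passed newly, 145 no longer passed and 10 turned. Those that turned belong to uncalled transcripts. TPS-b XM_002275070.1 (-0.32) became 0.61 without CL 2011 of E-L31 and 0.13 without CL 2011 of E-L35, in a range of -0.74 to 0.61 with 1 sample left out. VviUGT88A1L1 XM_002276679.2 (0.12) became -0.13 with library totals, -0.53 with no replicate block, -0.42 with 16 samples, -0.15 with 1 library, -0.14 with limma, and ranged from -0.27 to 0.93 with 1 sample left out (-0.21 without GT 2010 of E-L31, -0.27 without GT 2010 of E-L35 and -0.05 without 2011G1).

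The step rests on 1 sample per vineyard and vintage, and 3798921 reads in GT 2010 of E-L31 limit low transcripts most.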
